A study of Rattus norvegicus with 4 samples.

Results

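The genes of respiratory complex I were described across the cell classes and libraries of a rat infarct data set. Members were all rows of the deposited gene table whose symbol starts with Nduf, which gave 48 of 32623 rows, 40 for subunits and 8 for the assembly factors Ndufaf1 to Ndufaf8. By their place in the complex, 9 subunit rows belonged to the N module, 8 to the Q module, 10 to the proximal and 10 to the distal part of the membrane arm. The other 3 rows were Ndufab1, the acyl carrier protein found in both arms, and Ndufa4 and Ndufa4l2, which carry the Nduf name although Ndufa4 is now counted as a complex IV subunit. Counts, medians and sums over all subunits below include these 3 rows.

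Complex I oxidises NADH and passes the electrons to ubiquinone, and it pumps protons across the inner mitochondrial membrane. The N module binds NADH and the Q module holds the last iron-sulfur clusters before ubiquinone, while the membrane arm pumps. Core subunits of the membrane arm are made in the mitochondrion (the Mt-nd genes), all other subunits are encoded in the nucleus, and the assembly factors build the modules without staying in the finished enzyme. Heart muscle relies on this enzyme more than most tissues, and it is also a known source of reactive oxygen species on reperfusion.

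RNA of single nuclei was sequenced from infarct zones (Sprague Dawley rats), and each of the 4 samples, named Sham, MI_1H, MI_6H and MI_24H, gave 1 library. The treatment labels read Sham and MI with 1, 6 or 24h reperfusion, whereas the design text gives 1, 6 and 24 h of coronary ligation and lists reperfused hearts apart, which leaves the meaning of the hours unclear. The labels used here give neither age nor number of animals, and nothing ties the barcode suffixes 1 to 4 of the joint matrix to the samples. The suffixes are therefore called libraries 1 to 4, no library is compared with sham or with a time after infarction, and with 1 library per sample no test of a condition was possible. Intervals below cover counting error of unique molecular identifiers (UMIs) alone.

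The libraries held between 14296637 and 51913288 UMIs, and 41728 nuclei were used. Median UMIs per nucleus were 1298, 603, 1883 and 2213 in libraries 1 to 4, and the median share of mitochondrially encoded UMIs was 0.0767, 0.481, 1.29 and 1.10%. Library 2 stood apart, since 10168 of its 12897 nuclei fitted no class. Between 97 and 170 barcode sequences of each library also occurred in another library. Cardiomyocyte-like nuclei numbered 2665, 494, 1129 and 745. Of 11 cardiomyocyte markers found in the table, 11, 11, 9 and 9 were at least 2-fold higher there than in the other named nuclei, and none was lower. Fibroblast markers were nevertheless counted in them, at a summed 138, 1522, 3984 and 1909 CPM, UMIs scaled to a common total in each class and library. From the markers of other classes, the share of cardiomyocyte-like UMIs that free RNA could have supplied was estimated at 35.9, 66.3, 68.8 and 62.7%, and subtracting it gives the alternative values named below. The same estimate was 18.2 to 39.4% for the other classes of library 1, 58.0 to 72.8% in library 2, 58.5 to 85.2% in library 3 and 39.3 to 88.5% in library 4, where macrophage-like nuclei had the highest.

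The Nduf genes took 251239 UMIs, or 0.287% of all UMIs in these nuclei. Of the 48 rows, 4 were nearly empty. One of the paired rows of Ndufa10l1 (ENSRNOG00000062245) had 0 UMIs among 87419017, which allows up to 0.0343 CPM, Ndufa1 had 1, Ndufs6 had 52 and one row of Ndufv3 (ENSRNOG00000027593) had 133. The other rows of Ndufa10l1 (ENSRNOG00000016470) and Ndufv3 (ENSRNOG00000001182) are meant wherever these names appear below. Why those 4 rows were low was not tested.

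Cardiomyocyte-like nuclei were first set against all other named nuclei of the same library, which asks whether complex I messages are a mark of heart muscle nuclei. Those other nuclei were a different mix in each library. Macrophage-like nuclei made up 3.14% of library 1 and 35.5% of library 3, and endothelial-like nuclei 6.87% of library 2 and 34.8% of library 4. The subunits as a family showed no common direction. Their median difference, on the scale log2(CPM + 10), was 0.29 in library 1, 0.06 in library 2, -0.16 in library 3 and -0.30 in library 4. The medians for the assembly factors were -0.01, -0.14, -0.03 and -0.06. Over all genes the medians were -0.48, -0.23, -0.16 and -0.24, so the subunits lay above the general level in libraries 1 and 2, level with it in library 3 and below it in library 4. Scaling by the median ratio of genes in place of total UMIs raised every value and put the mean of the 4 subunit medians at 0.29 in place of -0.03, and that of the assembly factors at 0.18 in place of -0.06.

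A difference of at least 1.5-fold on that scale was called, with at least 30 UMIs in the comparison. In library 1, 36 subunits had enough UMIs, of which 10 were called higher and 1 lower, beside 11.7% of all genes higher and 43.3% lower. The 1 called lower was Ndufa4l2. Library 2 gave 3 higher and 1 lower of 34, beside 7.17% and 13.5% of all genes. In library 3 no subunit of 37 was called in either direction, where 6.84% of all genes were higher and 8.93% lower. Library 4 gave 1 higher and 6 lower of 37, against 8.53% and 20% of all genes. Ndufa4 was among the 6 lower. The assembly factors gave 1 higher and 1 lower of 8 in library 1, 1 higher of 7 in library 2, none of 8 in library 3 and 1 higher of 8 in library 4. The members themselves differed more than their medians.

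Of 34 subunits with enough UMIs in every library, 7 were above 0 in all 4 libraries and 6 below 0, beside 14.7% and 61.4% of 11200 genes. The 7 were Ndufs1, Ndufv2 and Ndufs4 of the N module, Ndufs3 and Ndufa9 of the Q module, and Ndufc1 and Ndufa10l1 of the membrane arm. Median-ratio scaling raised the cardiomyocyte-like values in every library, by log2 shifts of 0.83, 0.26, 0.26 and 0.35. It could therefore not bring these 7 below 0. With that scaling 15 of the 34 subunits were above 0 in all 4 libraries and 0 below, beside 29% and 34.4% of all genes. The numbers above and below thus depend on the scaling. The 7 named subunits also stayed above 0 in every library after the part that free RNA could supply was subtracted. The profile subtracted sums nuclei of both groups, so that step tends to keep the sign of a difference and to widen it. It is therefore no check of the signs. It left the shares over all genes nearly the same, with 14.6% above 0 in all 4 libraries and 61.6% below. The 6 below 0, Ndufa6, Ndufa7, Ndufa11, Ndufb2, Ndufb10 and Ndufb11, stayed below with free RNA subtracted, whereas with median-ratio scaling none of them was below 0 in all 4. As it tends to do, subtraction of free RNA widened the mean difference of Ndufs1 (0.75 to 1.74), Ndufa11 (-0.43 to -1.77) and Ndufb11 (-0.45 to -1.49).

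Among the core subunits that carry electrons, Ndufs1, the N module subunit with the most iron-sulfur clusters, stood highest. Libraries 1 to 4 had 103, 59.4, 76.1 and 91.5 CPM of it in cardiomyocyte-like and 37.9, 35.2, 52.0 and 54.0 CPM in the other nuclei. Its cardiomyocyte-like values exceeded the other value in each library, by ratios of 2.73 (95% interval 2.38 to 3.14), 1.69 (1.32 to 2.16), 1.47 (1.32 to 1.62) and 1.69 (1.51 to 1.90). Ndufv2, the iron-sulfur partner of the NADH-binding subunit, had 106, 74.2, 94.1 and 101 CPM against 59.1, 56.0, 93.6 and 97.6 CPM. Its excess was clear in libraries 1 and 2, where the intervals of the ratio left out 1, and in libraries 3 and 4 the intervals held 1. Ndufv1, which binds NADH itself, had 61.4, 56.9, 71.8 and 69.1 CPM against 38.2, 63.4, 86.1 and 85.1 CPM, so that it was higher in library 1 alone.

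In the Q module, Ndufs3, a core subunit that joins the module early, had 76.7, 66.3, 64.1 and 62.3 CPM in cardiomyocyte-like nuclei against 29.9, 34.2, 60.4 and 61.6 CPM. Its cardiomyocyte-like level was similar in all libraries while that of the other nuclei was not, and the ratio was 2.57 in library 1 and 1.01 in library 4. Ndufs7, the subunit with the terminal iron-sulfur cluster, had a ratio of 1.92 in library 1 and 0.836 in library 4, with 77.6, 91.5, 86.5 and 74.7 CPM against 40.4, 78.4, 91.3 and 89.3 CPM. Ndufs8, another iron-sulfur subunit, had 13.5, 37.1, 34.1 and 27.1 CPM against 13.1, 49.0, 49.6 and 42.9 CPM. It was the lowest of the 7 core subunits on this measure, with a mean difference of -0.31, which was -0.01 with median-ratio scaling and -1.41 with free RNA subtracted. The median over the 7 core subunits was 0.75, 0.24, -0.07 and -0.23 in libraries 1 to 4.

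The accessory subunits, which surround the core, spread as widely. Ndufa9, a Q module subunit that binds a nucleotide cofactor near the membrane, was the highest accessory subunit there with a mean difference of 0.47, and had 104, 61.8, 90.5 and 90.1 CPM against 51.2, 40.9, 77.2 and 71.9 CPM. Ndufa6, a subunit that binds the acyl carrier Ndufab1, was the lowest at -0.38 and had 19.1, 33.1, 56.6 and 42.8 CPM against 20.6, 40.0, 76.8 and 84.6 CPM. In the N module the lowest was Ndufa2, at -0.36, with 8.94, 22.3, 62.5 and 44.4 CPM against 16.3, 21.3, 79.1 and 78.5 CPM.

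In the proximal membrane arm Ndufc1, a small accessory subunit, was the highest, with a mean difference of 0.67. It had 52.4, 15.8, 51.8 and 56.1 CPM against 15.5, 6.48, 35.6 and 43.0 CPM, and all 4 ratios had intervals above 1. Ndufa11, which sits where complex I meets complex III in supercomplexes, was the lowest at -0.43, with 14.7, 63.8, 88.4 and 67.9 CPM against 18.1, 99.9, 123 and 102 CPM.

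Ndufb5 led the distal membrane arm with a mean difference of 0.44. Its level in cardiomyocyte-like nuclei was similar in every library, at 104, 101, 99.2 and 89.1 CPM, whereas in the other nuclei it was 33.5, 68.0, 98.7 and 98.7 CPM. Ndufb11 was the lowest there at -0.45, with 14.0, 9.40, 64.6 and 49.4 CPM against 20.5, 14.8, 87.6 and 87.0 CPM. Ndufab1 had 58.0, 38.1, 107 and 107 CPM against 42.1, 39.3, 121 and 122 CPM, higher in library 1 and close to or below the other nuclei elsewhere.

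Of the genes that only share the name, Ndufa4l2, a paralog of Ndufa4 known to be induced by hypoxia, had 5 UMIs in cardiomyocyte-like nuclei of library 1, or 0.604 CPM, against 8.72 CPM, a ratio of 0.0693 (95% interval 0.0217 to 0.170). In libraries 2 to 4 it had 4.45, 4.59 and 5.55 CPM against 4.63, 5.60 and 9.02 CPM, where the interval of the ratio held 1 in libraries 2 and 3 and ran from 0.391 to 0.935 in library 4. Among the other nuclei the pericyte-like class had 67.9, 22.6 (3 UMIs), 58.2 and 72.8 CPM of Ndufa4l2. Fibroblast-like and endothelial-like nuclei of library 1 had 2.04 and 6.06 CPM, and macrophage-like nuclei had 0 UMIs there. In library 3 these 3 classes had 3.26, 9.06 and 3.56 CPM. The part of pericyte-like nuclei in the ratios was not tested. Ndufa4 had 45.9, 96.5, 162 and 162 CPM against 44.8, 101, 228 and 267 CPM, and its mean difference of -0.30 became 0.08 with median-ratio scaling and -1.47 with free RNA subtracted.

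**Figure D1:**
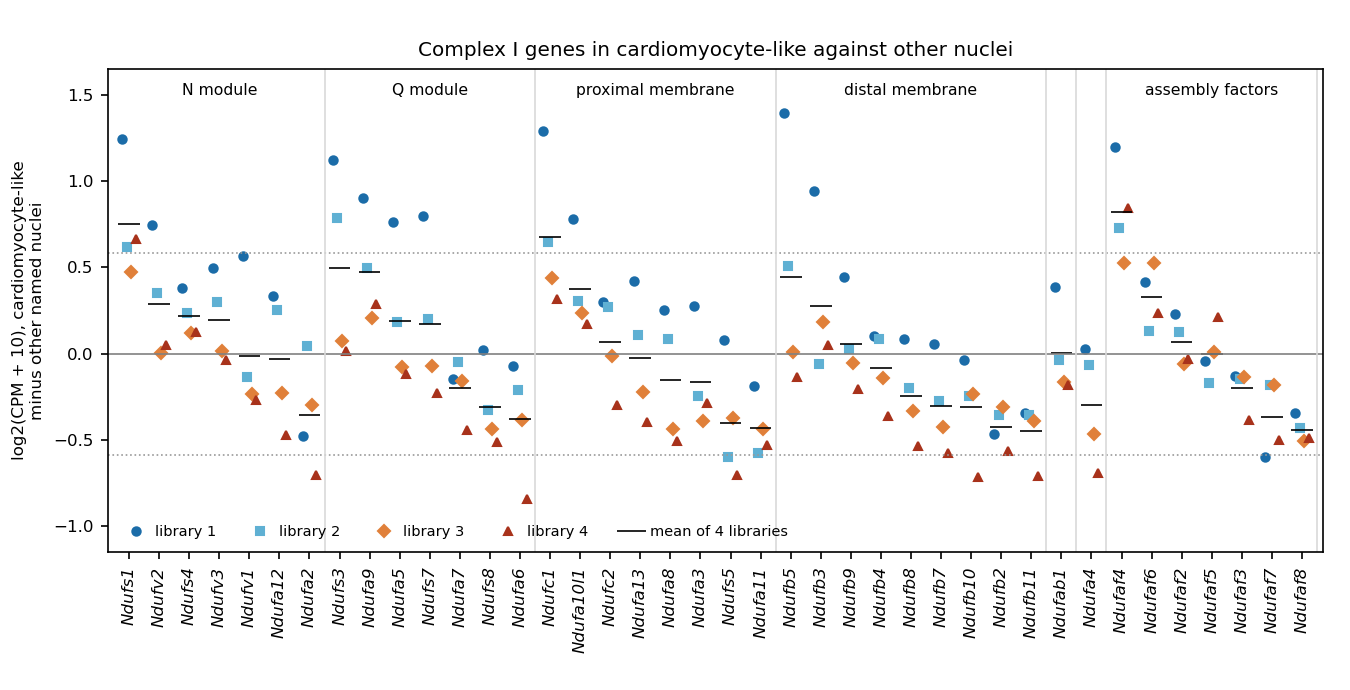
Difference in log2(CPM + 10) between cardiomyocyte-like and other named nuclei (vertical axis) for the complex I genes reported here that had enough UMIs in all 4 libraries (horizontal axis, by place in the complex), with 1 symbol per library, a bar at their mean and dotted lines at 1.5-fold. Library 1 symbols lie highest for most subunits, and Ndufaf4 (mean 0.82), Ndufs1 (0.75) and Ndufc1 (0.67) have every library above 0.

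The 8 assembly factors split in the same manner. Of 7 with enough UMIs in every library, 2 were above 0 in all 4 and 3 below, beside 14.7% and 61.4% of all genes. With median-ratio scaling 4 were above and 1 below, beside 29% and 34.4%. Ndufaf4, which acts with Ndufaf3 on Q module intermediates, had the largest mean difference of all members, 0.82, and 1.74 with free RNA subtracted. Its levels were 44.6, 49.5, 31.4 and 42.0 CPM in cardiomyocyte-like nuclei and 13.8, 25.9, 18.8 and 19.0 CPM in the others, and no cardiomyocyte-like value overlapped the other values. The ratios were 3.22 (95% interval 2.58 to 4.06), 1.91 (1.44 to 2.52), 1.67 (1.42 to 1.96) and 2.21 (1.84 to 2.66). Its partner Ndufaf3 was below the other nuclei in each library, with 7.61, 7.42, 11.4 and 9.05 CPM against 9.27, 9.25, 13.5 and 14.8 CPM. The interval of its ratio held 1 in libraries 1 to 3, and its mean difference of -0.20 became 0.01 with median-ratio scaling, where libraries 1 and 3 were above 0.

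Ndufaf6, needed for an early membrane intermediate, was the other assembly factor above 0 in every library. It had 33.5, 43.5, 45.9 and 42.6 CPM against 22.6, 38.9, 28.8 and 34.7 CPM, and its mean difference was 0.33. In library 2 the 95% interval of its cardiomyocyte-like level (34.9 to 53.6 CPM, 88 UMIs) held the value of the other nuclei. Ndufaf2, a paralog of the subunit Ndufa12 that holds a place for the N module late in assembly, was slightly above them in libraries 1 and 2 and slightly below in libraries 3 and 4, with 60.4, 55.4, 58.5 and 59.8 CPM against 50.1, 50.0, 61.4 and 61.5 CPM. Ndufaf5, which hydroxylates Ndufs7, had 19.8, 24.7, 26.7 and 29.6 CPM against 20.8, 29.2, 26.4 and 24.3 CPM, and all 4 intervals of its ratio held 1, by little in library 4 (1.00 to 1.48).

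Ndufaf8, which stabilises Ndufaf5, was below the other nuclei in every library, with 5.92, 16.3, 31.0 and 30.6 CPM against 10.2, 25.4, 48.2 and 47.1 CPM. Its mean difference was -0.44 and all 4 intervals of the ratio lay below 1, though with median-ratio scaling library 1 gave 0.02. With free RNA subtracted the mean was -1.63. Ndufaf7, a mitochondrial methyltransferase, had 2.90, 11.9, 15.7 and 11.5 CPM against 9.55, 14.8, 19.1 and 20.4 CPM. Its mean difference was -0.36, and it was the one assembly factor below 0 in all 4 libraries with both scalings. Ndufaf1, part of the complex that assembles the membrane arm, was thinly counted, with 19, 12, 36 and 17 UMIs in cardiomyocyte-like nuclei, and its ratios had intervals that held 1 in every library.

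Promoter windows of the members were searched for words of 3 factors known to act on genes of oxidative phosphorylation, the oestrogen-related receptors (ERR, named in the title of the series), NRF1 and YY1. Windows run from 250 bases before to 50 after a gene's start and come from RefSeq on the build GRCr8, and 41 of 46 member symbols had one. Words were read on both strands. AAGGTCA, the core of the ERR word, was in 4 of 41 windows (9.76%), in 4.61% of all 33469 windows and in 3.45% of the 15353 whose gene has a row in the deposited table. GCGCATGCG, the core of the NRF1 word and nearly its own reverse complement, was in 3 (7.32%) against 1.52% and 2.42%. AAGATGGC, the YY1 word, was in 10 (24.4%) against 3.17% and 4.20%. Those were 9 of 34 windows of rows counted as subunits (26.5%) and 1 of 7 assembly factor windows (14.3%). These are matches of letters and do not show that a factor binds.

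The 4 windows below are examples that hold a word, and capitals mark the words. Most windows of the members hold none. Among those without a word are Ndufs1 and Ndufc1 (mean differences 0.75 and 0.67) and Ndufb11 (-0.45). Ndufs4, above 0 in every library with a mean difference of 0.22, has the YY1 word starting at base 5 of the transcript. Ndufb2, a distal subunit below 0 in every library, has the ERR word. Ndufa11 had the lowest mean difference of the proximal subunits with scaling to total UMIs (with median-ratio scaling Ndufs5 was lower, -0.12 against -0.10). The window of Ndufa11 has 2 copies of the NRF1 word on each strand. Ndufaf4, the member with the largest excess in cardiomyocyte-like nuclei, has 1 on each strand. The windows are chr2:47794865-47795164 (minus strand), chr4:69334057-69334356 (plus), chr9:1637364-1637663 (plus) and chr5:43401545-43401844 (plus), written 5′ to 3′ along the gene.
Ndufs4: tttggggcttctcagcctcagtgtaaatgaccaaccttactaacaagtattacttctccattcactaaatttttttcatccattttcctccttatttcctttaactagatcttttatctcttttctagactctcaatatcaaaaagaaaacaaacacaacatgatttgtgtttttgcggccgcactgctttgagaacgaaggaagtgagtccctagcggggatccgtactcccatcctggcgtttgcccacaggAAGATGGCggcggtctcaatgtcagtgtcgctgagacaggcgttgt
Ndufb2: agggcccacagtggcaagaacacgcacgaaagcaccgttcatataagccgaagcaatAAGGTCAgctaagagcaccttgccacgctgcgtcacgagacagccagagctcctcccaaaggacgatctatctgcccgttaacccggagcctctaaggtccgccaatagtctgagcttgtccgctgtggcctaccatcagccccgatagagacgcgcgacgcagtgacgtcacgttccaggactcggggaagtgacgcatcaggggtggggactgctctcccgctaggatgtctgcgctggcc
Ndufa11: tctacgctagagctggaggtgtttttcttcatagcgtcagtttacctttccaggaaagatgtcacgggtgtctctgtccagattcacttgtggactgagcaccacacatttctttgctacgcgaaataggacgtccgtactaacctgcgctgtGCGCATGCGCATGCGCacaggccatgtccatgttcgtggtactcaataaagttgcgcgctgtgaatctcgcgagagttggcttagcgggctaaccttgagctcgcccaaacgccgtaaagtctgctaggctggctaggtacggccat
Ndufaf4: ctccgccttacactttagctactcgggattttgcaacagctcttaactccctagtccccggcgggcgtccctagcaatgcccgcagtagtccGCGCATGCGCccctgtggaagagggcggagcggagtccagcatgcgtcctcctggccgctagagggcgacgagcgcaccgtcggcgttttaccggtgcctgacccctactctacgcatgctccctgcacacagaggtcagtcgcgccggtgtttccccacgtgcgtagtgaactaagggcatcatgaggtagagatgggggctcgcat

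The NRF1 word was also in Ndufaf5, so members that hold it differ in their values, with mean differences of 0.82 for Ndufaf4, 0.00 for Ndufaf5 and -0.43 for Ndufa11. The 4 windows with the ERR word were those of Ndufb2, Ndufb4, Ndufs5 and Ndufs6. Ndufb2, Ndufb4 and Ndufs5 had mean differences of -0.42, -0.08 and -0.40 in cardiomyocyte-like against other nuclei, and Ndufs6 had too few UMIs. With median-ratio scaling none of the 3 was below 0 in every library.

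Partner genes of the respiratory chain gave a frame for these values, to be read beside the 14.7% of all genes above 0 in every library and the 61.4% below. Of 10 complex I assembly factors with other names, 3 were above 0 in all libraries and 2 below, and Foxred1 (mean 0.73) and Dmac2 (0.47) were the highest. Complex II had all 6 genes with enough UMIs in the 4 libraries above 0 in each, while Sdhaf4, thinly counted, was below 0 in the 3 libraries where it had enough. The medians were 0.88, 0.28, 0.27 and 0.48. The highest genes of that list were Sdhaf3, an assembly factor (0.97), and Sdhc, a membrane anchor (0.72). Complex III gave 3 of 14 above and 4 below, led by the assembly factor Uqcc1 (0.93) and Uqcrc2 (0.69). Complex IV gave 2 of 20 above and 7 below, led by Cox10 (1.10) and Cox15 (0.32), both enzymes of haem A synthesis. The ATP synthase list gave 2 of 16 above and 4 below, led by its assembly factors Atpaf1 (0.40) and Atpaf2 (0.22). Of the 7 mitochondrially encoded complex I subunits 5 were below 0 in all libraries, with medians of -0.95, -0.02, -0.58 and -0.47, and Mt-nd4l (-0.34) and Mt-nd3 (-0.45) were the least low.

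The share of assembly factors among Nduf UMIs needs no scaling, since both families are counted in the same nuclei. Assembly factors made up 8.68% (95% binomial interval 8.26 to 9.12) of Nduf UMIs in cardiomyocyte-like nuclei of library 1, 11.3% (10.3 to 12.4) in library 2, 7.35% (7.001 to 7.72) in library 3 and 8.14% (7.69 to 8.61) in library 4. The share was higher in library 2 than in the other 3 libraries beyond counting error, and lowest in library 3, where its interval reached into that of library 4. In fibroblast-like nuclei it was 11.4, 12.5, 8.04 and 7.92%, in endothelial-like nuclei 9.41, 11.1, 5.70 and 6.67%, in pericyte-like nuclei 8.28, 9.01, 5.87 and 6.12% and in the macrophage-like class 9.51, 7.72, 5.37 and 5.07%. Every class counted in all 4 libraries thus had a larger share in libraries 1 and 2 than in libraries 3 and 4, although the intervals of libraries 1 and 4 overlapped for cardiomyocyte-like nuclei, and for pericyte-like nuclei those of libraries 1 and 2 overlapped those of libraries 3 and 4. Neutrophil-like nuclei, counted in libraries 3 and 4 alone, were at 5.23 and 4.21%.

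The classes were not in the same order in each library. Cardiomyocyte-like nuclei had the highest summed subunit level of 8 classes in library 1, 1862 CPM against 1024 to 1507 CPM in the other 7 classes. They had the lowest of 8 classes in library 4, with 2580 CPM where macrophage-like nuclei had 4344 CPM. In library 3 they were also the lowest, with 2846 CPM (95% interval 2806 to 2887), within counting error of fibroblast-like nuclei (2863 CPM, 2833 to 2893), and in library 2 they had 1682 CPM of a range from 1479 to 1897 CPM. Summed assembly factors ran from 159 to 215 CPM in library 2 and from 195 to 250.5 CPM in library 3. Cardiomyocyte-like nuclei were at 177, 215, 226 and 229 CPM, the highest class in libraries 1 and 2. Their interval was overlapped, however, by those of all other 4 classes in library 2, fibroblast-like nuclei (212 CPM) being the nearest, and by those of macrophage-like, endocardial and lymphatic endothelial-like nuclei in library 1. In libraries 3 and 4 the fibroblast-like class was the highest, at 250.5 and 252 CPM, and cardiomyocyte-like nuclei exceeded 5 and 4 of the other 7 classes.

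Summed subunits followed the mitochondrially encoded share of UMIs across the 29 units of 1 class in 1 library, with r = 0.918 between the logarithms. The correlation for summed assembly factors was 0.631 and for the assembly share -0.675. Within libraries 3 and 4, over 8 classes each, r was 0.975 and 0.940 for the subunits and -0.491 and -0.457 for the assembly factors. In library 1, where that share was lowest, r was -0.0977 and -0.218. Units share libraries and depth, and the correlations are given as a description with no test. In the plot against the mitochondrially encoded share, cardiomyocyte-like nuclei of library 1 lie away from the rest, with the smallest share (0.0642%) and the highest subunit level of that library.

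**Figure D2:**
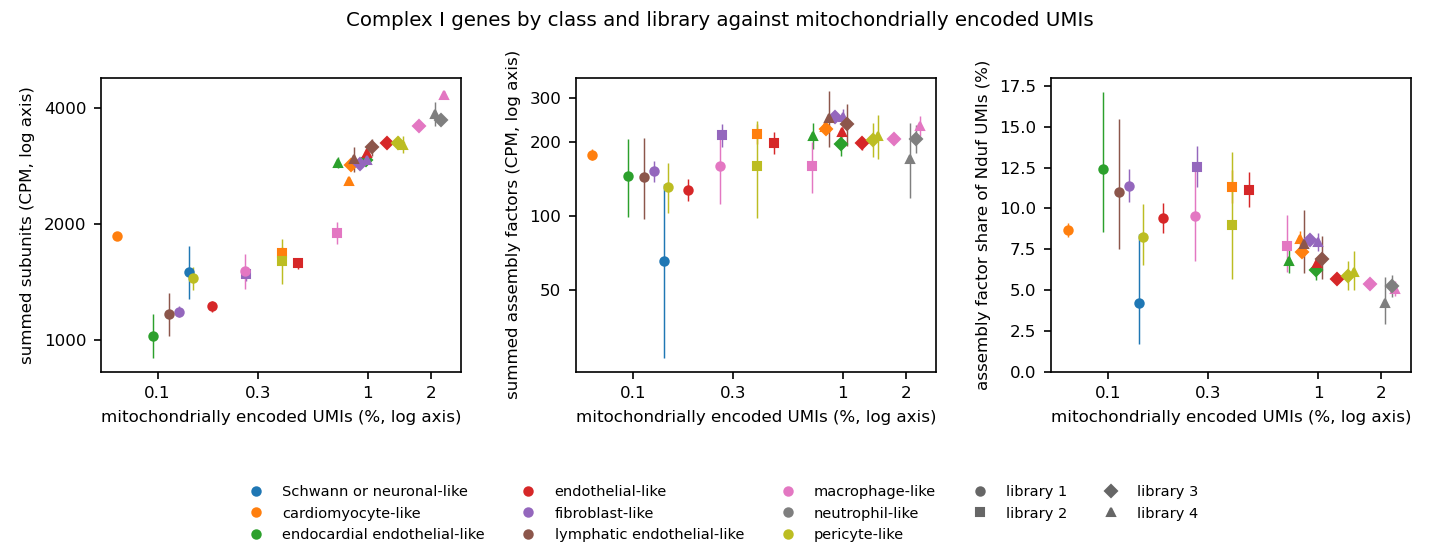
Summed subunit CPM, summed assembly factor CPM and the assembly factor share of Nduf UMIs (vertical axes) against the percentage of mitochondrially encoded UMIs (horizontal axes, log scale), with 1 point per class and library, colours for classes, symbols for libraries and bars for 95% counting intervals. Subunits climb from 1024 to 4344 CPM along the horizontal axis, and all assembly factor values but that of the Schwann or neuronal-like nuclei (7 UMIs) lie between 127 and 252 CPM.

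Within cardiomyocyte-like nuclei the members were next compared between libraries, against the mean of the 4. The class lay in different clusters by library, in cluster 3 for library 1 (2654 nuclei), in cluster 25 for library 2 (480) and in clusters 9 and 26 for libraries 3 (794 and 334) and 4 (619 and 124), and the part of this in the values was not tested. Subunits had medians of -0.26, -0.29, 0.36 and 0.20 in libraries 1 to 4, and assembly factors -0.22, 0.03, 0.12 and 0.03, beside -0.32, 0.10, 0.11 and 0.07 over all genes. The subunits thus ran lower in library 2 and higher in library 3 than both, whereas in library 1 they were close to all genes. The place of library 1 depended on the scaling, and with median-ratio scaling the subunit medians were 0.23, -0.43, 0.16 and 0.08 and those of the assembly factors 0.24, -0.17, 0.00 and -0.09. Library 1 against the mean of the others gave -0.35 for subunits and -0.29 for assembly factors, beside -0.42 over all genes. The subunit value was -0.71 without library 2, -0.15 without library 3, -0.22 without library 4, 0.30 with median-ratio scaling and 0.24 with free RNA subtracted. At 1.5-fold 13 of 37 subunits, Ndufa4 among them, and 2 of 8 assembly factors were called lower there and none higher. Over all genes 39.6% were lower and 6.35% higher.

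The parts of the enzyme differed between libraries by different amounts. Distal membrane subunits had medians of -0.51, -0.55, 0.73 and 0.36 and proximal ones -0.26, -0.34, 0.53 and 0.36. The peripheral arm varied less, with 0.05, -0.29, 0.12 and 0.10 for the N module, -0.15, -0.11, 0.19 and 0.08 for the Q module and -0.06, -0.15, 0.06 and 0.08 for the 7 core subunits. The median span between the highest and the lowest library was 1.52 for 10 distal subunits, 1.24 for 8 proximal ones, 0.55 for the Q module, 0.54 for the N module and 0.39 for the assembly factors. Spans of low genes, several assembly factors among them, are understated on this scale. The Mt-nd genes, the mitochondrially encoded part of the enzyme, varied more than any of these, with medians of -2.16, -0.21, 1.21 and 1.13.

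The widest spans belonged to Ndufa11 (1.99), Ndufb9 (1.97) and Ndufb11 (1.94). Ndufb9, a distal membrane subunit, had 60.3, 35.1, 167 and 154 CPM, so libraries 3 and 4 stood well apart from libraries 1 and 2. Ndufb11 had the same shape, with 14.0 and 9.40 CPM against 64.6 and 49.4 CPM. Ndufa11 differed from both, since only library 1 was low at 14.7 CPM, and library 2 with 63.8 CPM was close to library 4 with 67.9 CPM. At the other end, among members outside the 4 nearly empty rows, Ndufaf2 (span 0.11), Ndufb5 (0.21), Ndufs3 (0.26) and Ndufs7 (0.26) were nearly level in all 4 libraries, and Ndufs7 stayed between 74.7 and 91.5 CPM. Ndufaf8 had the widest span among assembly factors, 1.36, with levels of 5.92, 16.3, 31.0 and 30.6 CPM, and the other 7 had spans between 0.11 and 0.99. The span of 0.99 was that of Ndufaf7, which had fewer CPM than Ndufaf8 in every library, so that its span is understated more.

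**Figure D3:**
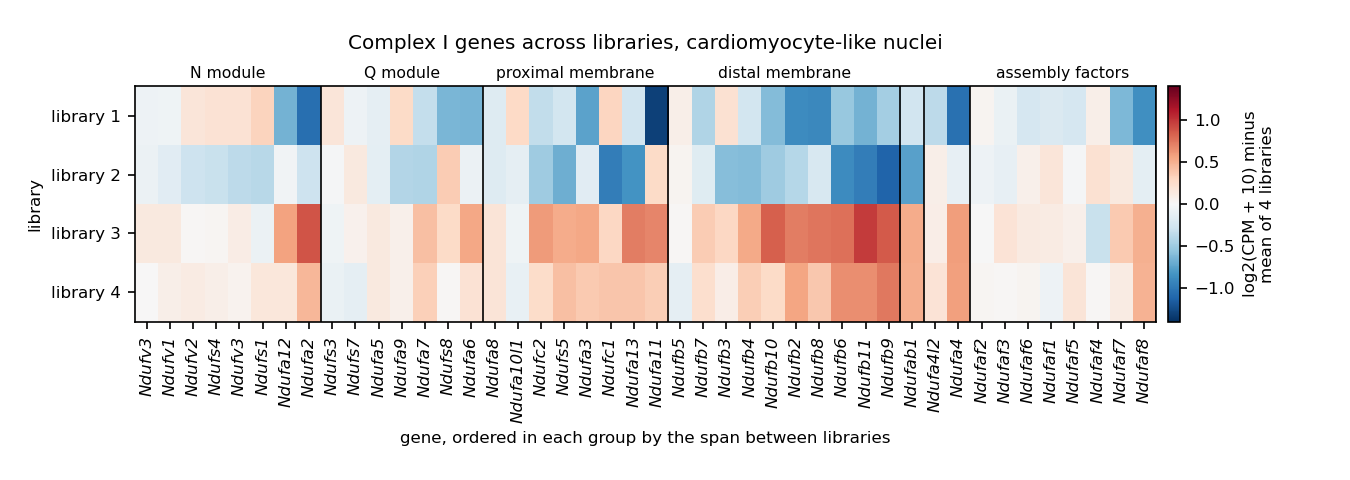
Level of the complex I genes reported here in cardiomyocyte-like nuclei by library (rows), as log2(CPM + 10) minus the mean of the 4 libraries (colour), with genes grouped by place in the complex and ordered by span. Distal membrane subunits show the strongest change of colour (medians -0.51, -0.55, 0.73 and 0.36), and most assembly factors the weakest. The scale understates differences of low genes.

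The medians of the other large classes were taken in the same way, each against its own mean of the 4 libraries. Over all genes they lay between -0.16 and 0.06 in these classes. In fibroblast-like nuclei the subunit medians were -0.60, -0.33, 0.46 and 0.51 and the assembly medians -0.27, -0.11, 0.17 and 0.12. Endothelial-like nuclei gave -0.66, -0.35, 0.54 and 0.45 for subunits and -0.27, 0.01, 0.03 and 0.18 for assembly factors. In macrophage-like nuclei the values were -0.58, -0.39, 0.46 and 0.70 against -0.08, -0.24, 0.05 and 0.19, and in pericyte-like nuclei -0.46, -0.45, 0.50 and 0.55 against -0.29, -0.05, 0.16 and 0.23. Some subunits were much higher in cardiomyocyte-like nuclei of library 1 than in those classes and not so in library 3. Ndufb5 had 104 CPM there but 26.9 CPM in fibroblast-like and 34.7 CPM in endothelial-like nuclei of library 1, while in library 3 the 3 classes had 99.2, 86.1 and 92.5 CPM.

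Ndufaf4 kept its excess over each of those classes. Fibroblast-like nuclei had 15.3, 27.3, 24.5 and 23.9 CPM, endothelial-like 12.8, 30.04, 14.4 and 17.7 CPM and macrophage-like 8.56, 6.61, 15.4 and 20.5 CPM, all below the 31.4 to 49.5 CPM of cardiomyocyte-like nuclei. The macrophage-like values of libraries 1 and 2 rest on 2 and 3 UMIs. Ndufs1 was also highest in cardiomyocyte-like nuclei in each library, with fibroblast-like values of 39.5, 35.0, 55.3 and 61.2 CPM. Ndufs4, an N module subunit often mutated in complex I deficiency, was also read in these classes. Its cardiomyocyte-like values were 198, 136, 175 and 182 CPM, its fibroblast-like values 147, 110, 158 and 143 CPM and its endothelial-like values 150, 123, 174 and 180 CPM. Its lowest value of any class was 88.1 CPM, in macrophage-like nuclei of library 2, and its highest 374 CPM (95% interval 267 to 509.8), in the Schwann or neuronal-like nuclei of library 1.

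The difference of a member between library 1 and the others in fibroblast-like nuclei was set against its difference between cardiomyocyte-like and endothelial-like nuclei within 1 library, which uses other nuclei. Across 42 to 44 members r was 0.401 in library 1, 0.544 in library 3 and 0.509 in library 4, and across 41 members in library 2 it was 0.461. These are correlations across genes, which are not independent replicates. The same correlation was not computed over all genes. Free RNA shared by the classes of a library can enter both differences, and its part was not tested.

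The nuclei of each class and library were split at their median mitochondrially encoded share, and CPM were taken without mitochondrially encoded UMIs. In cardiomyocyte-like nuclei of library 3 summed subunits were at 3337 CPM in nuclei above that median and 2547 CPM in the rest, a ratio of 1.31 (95% interval 1.27 to 1.35). Summed assembly factors were at 216 and 236 CPM, a ratio of 0.913 (0.822 to 1.01). Library 4 gave 3135 against 2180 CPM for subunits, a ratio of 1.44 (1.39 to 1.49), and 1.05 (0.928 to 1.18) for assembly factors. In libraries 1 and 2 the subunit ratios were 1.12 and 1.13 and the assembly ratios 1.12 and 1.25, and their intervals overlapped. Nuclei above the median also had fewer UMIs, for example 3432 against 5544 per nucleus in library 3, and the part of depth in these ratios was not tested.

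The split needed 50 nuclei on each side, which left out the lymphatic endothelial-like nuclei of library 4. Over the other 28 units of 1 class in 1 library the subunit ratio was above 1 in 28 and its interval above 1 in 25. The assembly ratio was above 1 in 13 of 28, with the interval above 1 in 2, both cardiomyocyte-like, and below 1 in none. Medians over units were 1.23 for subunits and 0.977 for assembly factors, and the subunit ratio was the larger in 23 units.

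**Figure D4:**
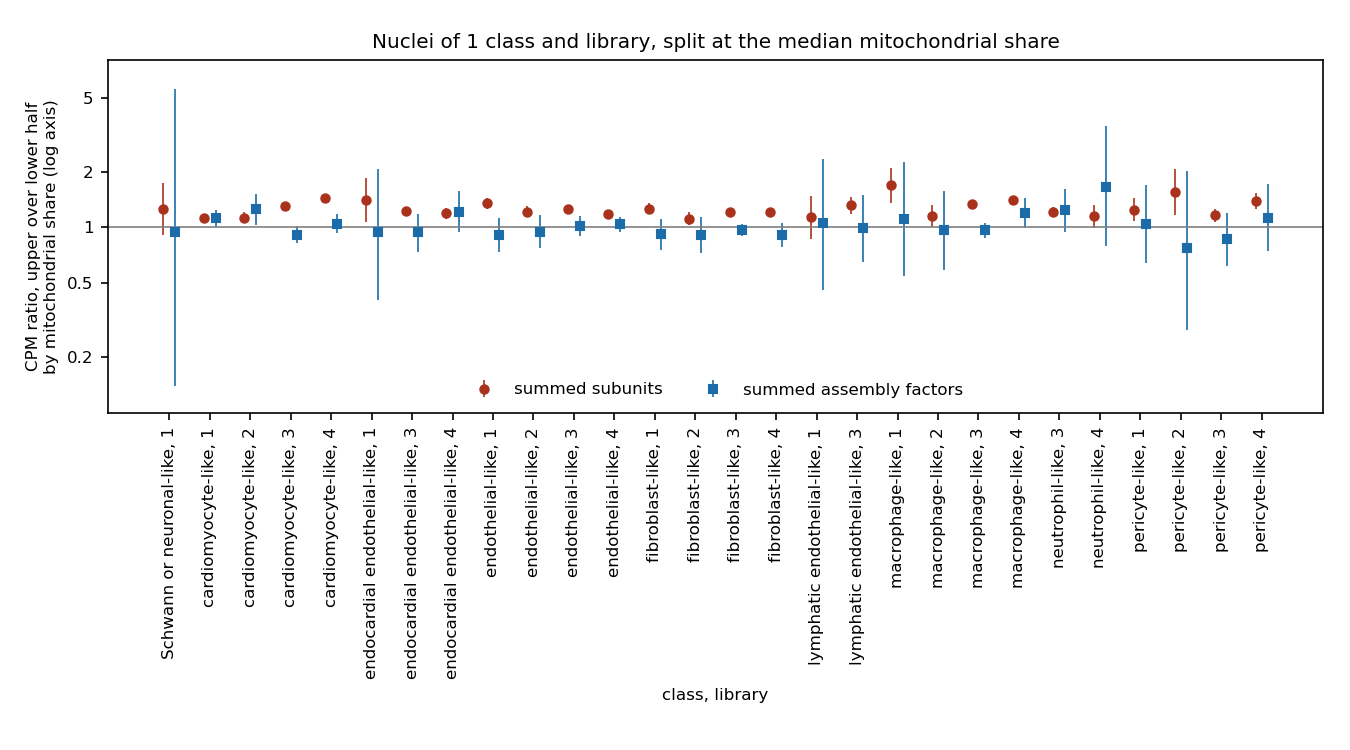
Ratio of CPM between nuclei above and at or below the median mitochondrially encoded share (vertical axis, log scale) for summed subunits (circles) and summed assembly factors (squares) in each class and library (horizontal axis), with 95% counting intervals. Subunit ratios lie above 1 in 28 of 28 units (median 1.23), and assembly factor ratios scatter about 1 (median 0.977).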

How the data were processed

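Nuclei from the infarct zone of rat hearts were sequenced with droplet 3' chemistry, 1 library for each of 4 samples. The deposited matrix holds raw UMI counts of 32623 genes in 48637 barcodes, not normalized by the authors. Its header names cellranger 5.0.1, whereas the submitters' processing notes name Cell Ranger 6.1.1, Seurat and rn7, so the build behind the counts is unsettled, and no coordinates of counted genes are given.

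The 46590 barcodes that reached 500 UMIs and 300 genes, with no more than 10% mitochondrially encoded UMIs, were kept, and scanpy's Scrublet score removed 4862, a number scaled to the nuclei of each library. Nuclei were clustered with scanpy 1.11.5 and leidenalg 0.10.2 (2000 variable genes, 30 components, resolution 2, 34 clusters). Clusters were named from marker lists. Thread and processor settings were fixed after a first set of values had been computed, since cluster borders differed without that, and a small cluster seen then is not reported. Several clustering settings were tried, and the settings and the naming rule were chosen after clusters and markers had been seen. The members, lists and motifs were chosen with earlier results of these data known.

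UMIs were summed per class and library and scaled to a common total (CPM), and differences were taken as log2(CPM + 10), which understates those of low genes. A gene needed 30 UMIs in a comparison and a class 50 nuclei in a library. Intervals are exact at 95% (Poisson, Clopper-Pearson, conditional binomial; scipy 1.17.1). With 1 library per group there was no test, and code was tested on simulated data. Named with values were the 7 core subunits, all Ndufaf genes, Ndufa4, Ndufa4l2, Ndufab1, the highest and lowest member of each structural group, the 3 genes of widest span over libraries and the 2 highest genes of each other list. Ndufs4, Ndufb2, Ndufb4, Ndufs5, Sdhaf4 and the other least variable members were named after their values were seen, and Ndufa10l1 was placed in its group then. The alternatives were other UMI, mitochondrial and doublet limits, pseudocount, gene filter, scaling and clustering, subtraction of free RNA (the summed profile of a library's nuclei, in an amount set by markers of other classes), and leaving out libraries, clusters or genes. The split of nuclei by mitochondrial share and the values per member under other scalings were added after the data were seen. Ndufa10 and Ndufb1 were not analysed here. One gene that the naming rule picks is not reported here, though the counts and medians of its lists include it.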

Additional observations from a re-analysis of the deposited data

Results flagged for a closer look

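Nuclei of library 2 that fitted no class stand outside the comparisons above, yet they held 14866 subunit and 1323 assembly factor UMIs in 10168 nuclei. Summed subunits were at 2302 CPM in them, above the 1479 to 1897 CPM of the 5 named classes of that library. Summed assembly factors were at 204.9 CPM, within the 159 to 215 CPM of those classes. The assembly factor share was 8.17% (95% interval 7.75 to 8.60), and 0.817% of their UMIs were mitochondrially encoded. These nuclei had a median of 574 UMIs, near the limit of 500, against 1021 to 2344 in the named classes, and no free RNA share was estimated for them. No library serves as a control for these values, and they were picked out because the nuclei enter no comparison above.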

How the results depend on the processing

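Means over the 4 libraries of the cardiomyocyte-like difference were -0.03 for subunits and -0.06 for assembly factors, the assembly factor share was 8.88%, and library 1 lay at -0.35 and -0.29 against the other libraries. Median-ratio scaling gave 0.29, 0.18, 0.30 and 0.31 for the 4 differences, where the value over all genes for library 1 went from -0.42 to -0.00. It also turned the subunit class difference of library 3 to 0.017 and those of Ndufb8 to 0.11, Ndufa4 to 0.082, Ndufa8 to 0.20, Ndufa7 to 0.16 and Ndufb7 to 0.070. The subunit median of library 1 against the mean of 4 became 0.23, and 0.18 with free RNA subtracted, where the subunit level against the mean of 4, library 4, became -0.034. That subtraction put the class difference of the subunits at -0.20, their library 1 difference at 0.24 and the assembly share at 11.4%, which was 9.32% without Ndufa4 and Ndufa4l2. The cause of these changes was not tested. Leaving out each library in turn gave -0.13 to 0.06 and -0.08 to -0.03 for the class differences, 8.06 to 9.38% for the share, and -0.71 (without library 2) to -0.15 (without library 3) and -0.30 to -0.27 for library 1. Without library 1 the Ndufa5 class contrast became -0.0036 and the Ndufs7 class contrast -0.034. The other alternatives that kept all libraries moved none of the 5 values beyond its counting error, though values near 0 could change sign. No paired analysis was possible because each group has 1 library and the result comes from no test. Outside the nearly empty rows of the gene table, depth was lowest for Ndufaf1 and Ndufa4l2, with 362 and 491 UMIs.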
